A study of Mus musculus with 4 samples.

Results

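Cathepsins are the main proteases of the lysosome, the acid compartment in which microglia, the resident macrophages of the brain, break down what they take up. Most are cysteine proteases, which cut with an active-site cysteine, whereas cathepsin D is an aspartic protease and cathepsin A a serine carboxypeptidase. They are made as inactive proenzymes, carried to the lysosome largely by mannose 6-phosphate receptors, and held in check outside it by cystatins. Transcripts of 10 cathepsin genes, taken by symbol, are described here out of 56832 genes listed: the cysteine class genes Ctsb, Ctsc, Ctsf, Ctsh, Ctsk, Ctsl, Ctss and Ctsz, the aspartic class gene Ctsd, and the serine class gene Ctsa. In GENCODE M21, Ctsa and Ctsz lie on mouse chromosome 2, Ctsk and Ctss on 3, Ctsc and Ctsd on 7, Ctsh on 9, Ctsl on 13, Ctsb on 14 and Ctsf on 19.

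RNA sequencing gave 4 libraries of 1 group, untreated as far as the labels say: cultured microglia of C57BL/6 mice, grown in primary glial culture, released with trypsin and sorted by flow cytometry. No genotype, age or sort gate is given in the sources used here, nor whether the libraries came from separate cultures or animals, so SDs and p-values cover the spread of these libraries alone, and that spread may be technical. The wider study set these cells beside blood progenitor cells, alone or co-cultured with glia, which were not analysed here. The libraries held 23212183 to 28469813 gene counts. No files were identical, and the counts of every pair differed by more than counting noise (chi-square 5.17 to 13.6 times its degrees of freedom). All 8 microglial markers examined, Cx3cr1 and Tmem119 among them, were at 1 CPM or more in every library, where CPM is a gene's counts scaled to a common total of gene counts per library. Markers of other cells were present too. All 6 astrocyte markers were at 1 CPM or more in every library, with a sum of 269 to 461 CPM that was lowest in replicate 1, against 16255 to 17213 CPM for the microglial list. Of 5 border macrophage markers, Mrc1 was at 554 CPM ± 57.6 and Pf4 at 65.6 ± 3.59, while Lyve1 and Cd163 had 0 counts. The part of such cells in the cathepsin levels was not tested. The label female was checked against Xist, the RNA of the inactive X chromosome, at 300.2 CPM ± 42.9 (SD, n = 4), but Y-linked Ddx3y was also present in every library, at 36.2 CPM ± 5.44.

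The 10 genes took 2.16%, 2.35%, 2.20% and 2.25% of all gene counts in replicates 1 to 4, a mean of 2.24% ± 0.0798 (SD, n = 4). The total was highest in replicate 2 and lowest in replicate 1. To compare genes with each other, levels are given as TPM, counts divided by the merged exon length of the gene and scaled to a common library total. On that scale the family spanned Ctsk, near 0, to 4 genes that stood above the rest, Ctsz, Ctsb, Ctss and Ctsd. That gap rests on gene length, since in CPM Ctsz, at 1229, was close to Ctsa, at 1199. Ctsd alone made up 50.3% ± 0.795 of the family's TPM, Ctss 18.6% ± 1.51, Ctsb 13.6% ± 0.385 and Ctsz 10.5% ± 0.462. The remaining 6 genes ranged from 3.14% ± 0.0589 for Ctsa to 0.00231% ± 0.00261 for Ctsk.

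Ctsd encodes the aspartic endopeptidase cathepsin D, which cuts proteins in the acid lysosome. It was at 13558, 14615, 13424 and 13726 TPM in replicates 1 to 4. Its mean of 13831 ± 537 (SD, n = 4) ranked 6 among all genes matched to an exon length, and ranks below are on the same scale. The genes next to it in that order were Tmsb4x, an actin-binding peptide gene, at 14103 TPM ± 1433, or 1.02 times Ctsd, and the complement chain C1qa at 12624 TPM ± 261, or 0.913 times Ctsd. The likeness is one of mean level over 4 libraries and was not tested. In GENCODE M21, 34.4% of the exon bases of Ctsd are shared with another gene, Gm49369 on the same strand, which had 0, 2, 0 and 4 counts. If reads on shared bases were discarded, Ctsd is understated: with shared bases left out of the gene length it was at 19410 TPM ± 769.8. Ctsl, Ctsa and Ctsb share 26.8%, 17.4% and 12.8% of their exon bases with other genes. The deposited counts include a line of reads set aside as ambiguous, 1.99% to 2.31% of reads per library, without the genes they fell on. The overlap setting itself is not given in the sources used here, and its part in these levels was not tested.

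Ctss, a cysteine endopeptidase that stays active at neutral pH and trims the class II invariant chain, was second. It was at 5160, 4714, 4929 and 5584 TPM in replicates 1 to 4, with a mean of 5097 ± 372 (SD, n = 4) and rank 16. Replicate 4 was highest and replicate 2 lowest. Its neighbours in level were C1qc, another complement chain, at 5270 TPM ± 384, and the signalling adaptor Tyrobp at 4672 TPM ± 360.1. Ctsb, which acts as endopeptidase and carboxypeptidase, was at 3620, 4010, 3667 and 3662 TPM, with a mean of 3740 ± 181 (SD, n = 4) and rank 22. Replicate 2 was highest here and the other 3 libraries were close together. It stood between the pore-forming protein gene Mpeg1 at 4120 TPM ± 146 and the mitochondrially encoded mt-Cytb at 3678 TPM ± 607. Ctsz, the carboxypeptidase cathepsin X, was at 2749, 3132, 2896 and 2790 TPM, with a mean of 2892 ± 172 (SD, n = 4) and rank 28. As for Ctsb and Ctsd, its highest library was replicate 2.

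Genes of 3 exopeptidases formed a middle tier. Ctsa, the carboxypeptidase that also protects the lysosomal enzymes Neu1 and Glb1 within a complex, was at 852, 876, 862 and 859 TPM in replicates 1 to 4. Its mean was 862 TPM ± 9.92 (SD, n = 4). Ctsc, the dipeptidyl peptidase that activates serine proteases of immune granules, was at 477, 453, 447 and 479.9 TPM, a mean of 464 ± 16.6. Ctsh, an aminopeptidase, was at 405, 434, 429.8 and 393 TPM, a mean of 415 ± 19.5. Ctsc was highest in replicate 4, the library in which Ctsh was lowest, and the ranges of these 2 genes did not overlap.

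The lowest tier held 3 cysteine protease genes. Ctsl, an endopeptidase gene, was at 120.4, 120.1, 121 and 129.7 TPM in replicates 1 to 4, a mean of 123 ± 4.6 (SD, n = 4). Its merged exon length of 6489 bases is set by long annotated transcripts, and with its shortest principal transcript of 1971 bases it was at 250.2 TPM ± 9.21. With exon bases shared with other genes left out of the length, Ctsl was at 155 TPM ± 5.98. Ctsf, whose proenzyme carries a cystatin-like domain, was at 43.4, 39.9, 39.1 and 40.9 TPM, a mean of 40.8 ± 1.84. The libraries stayed within a narrow range for both, and each had 1356 counts or more.

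Ctsk, the collagen-degrading protease best known from osteoclasts, was close to the detection limit, with 3, 7, 0 and 21 counts in replicates 1 to 4. That is 0.111, 0.299, 0 and 0.738 CPM, and a count of 0 in replicate 3 allows up to 0.129 CPM. Such limits cover counting error only. Markers of osteoclasts were also low: of 5 markers 0 were at 1 CPM in all libraries, their sum was 0.345 to 1.63 CPM, Calcr was at 0 counts, and Acp5 was at 0.963, 0.299, 0.129 and 0.0351 CPM in replicates 1 to 4. Of 7 mural cell and fibroblast markers, 6 were at 1 CPM in all libraries and the sum was 75.8 to 107 CPM. The sum was highest in replicate 3, the library with no Ctsk count. Within the list, Acta2, Tagln and Pdgfrb were highest in replicate 3, with Acta2 at 42.8, 57.2, 73.5 and 45.7 CPM in replicates 1 to 4, while Col1a1, Col1a2, Dcn and Lum were lowest there, with Col1a1 at 6.29, 7.04, 2.33 and 4.18 CPM. The part of such cells in the Ctsk counts was not tested, and in bulk RNA fewer cells of a type and less RNA per cell cannot be told apart.

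**Figure D1:**
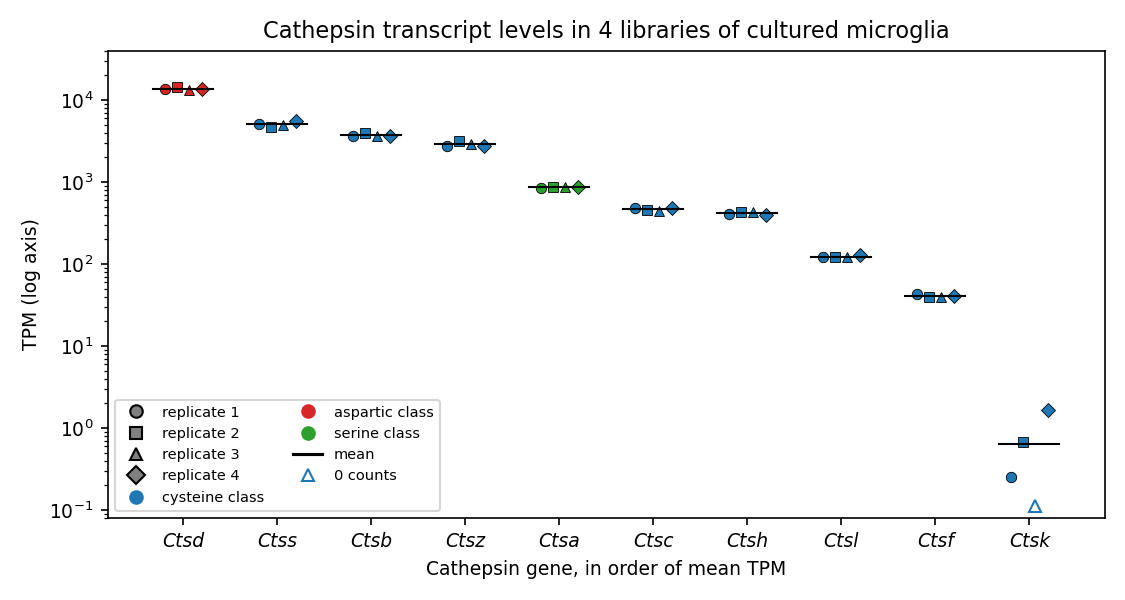
TPM of each cathepsin gene (log axis) in each of the 4 libraries, ordered by mean TPM, with colour for the protease class, symbols for the replicates and a line at the mean. The 4 highest genes lie between 2749 and 14615 TPM, and Ctsk is at 1.64 TPM or less, with its 0 count in replicate 3 drawn as an open symbol at the foot of the axis.

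The order of the genes was described by the within-library log2 TPM difference of the 9 neighbouring pairs. In all 9 pairs the higher gene was higher in 4 of 4 libraries, but the pairs were formed on the mean TPM of these same libraries, so this is a description with no test. Leaving Ctsk aside, the largest steps were between Ctsh and Ctsl, 1.76 ± 0.114, and between Ctsz and Ctsa, 1.74 ± 0.068 (log2, SD, n = 4). In CPM without length the Ctsz to Ctsa step was 0.03, with mixed signs, and the Ctsh to Ctsl step 1.23. The step between Ctsf and Ctsk was 4.64 in replicate 4, where Ctsk had 21 counts, and larger in the others, where it had 7 or fewer and its 0 was set to 3 counts. The smallest was between Ctsc and Ctsh, 0.16 ± 0.118, with 0.06 in replicates 2 and 3, and it turned to -0.10 with principal transcript lengths. The step between Ctss and Ctsb, 0.44 ± 0.159, was 0.10 with longest or principal transcript lengths, where not all libraries shared the sign, and in CPM without length Ctsb stood above Ctss, a Ctss minus Ctsb difference of -1.71. The step between Ctsa and Ctsc, 0.89 ± 0.0642, was 0.04 with principal transcript lengths, and that between Ctsl and Ctsf, 1.59 ± 0.0824, was 0.39 with longest transcripts. The step between Ctsb and Ctsz, 0.37 ± 0.0277, was 0.72 with longest or principal transcript lengths and 2.44 in CPM. That between Ctsd and Ctss, 1.44 ± 0.141, was 2.05 with shared exon bases left out and 2.23 in CPM. Step sizes thus depend on the gene length chosen.

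The cysteine and aspartic classes were then set beside each other. The 8 cysteine genes summed to 12575, 12903, 12529 and 13081 TPM in replicates 1 to 4, a mean of 12772 ± 265 (SD, n = 4), against 13831 ± 537 TPM for Ctsd. The cysteine sum was below Ctsd in 4 of 4 libraries, with a log2 ratio of cysteine sum over Ctsd of -0.11 ± 0.0467. The exact permutation test, two-sided and by sign flips over the libraries, gave p = 0.13, the smallest that 4 libraries allow, so it could not pass 0.05. Replicate 2 had the lowest ratio, -0.18, and replicate 4 the highest, -0.07. The direction depends on gene length. The ratio was -0.65 when shared exon bases were left out, 0.02 with principal transcripts and 0.27 in CPM. Within the cysteine class, Ctss, Ctsb and Ctsz carried most of the sum, and the median cysteine gene stood far below Ctsd, by -4.97 on the log2 scale.

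**Figure D2:**
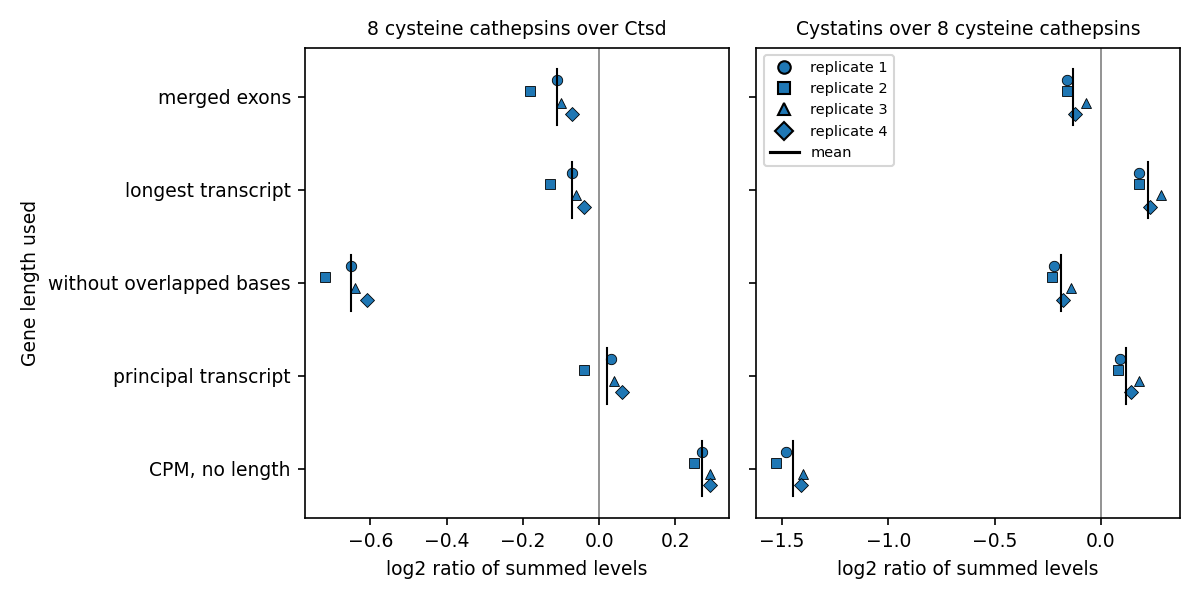
Log2 ratio of summed levels in each of the 4 libraries (symbols) and their mean (line), for the 8 cysteine cathepsins over Ctsd and for the listed cystatins over the 8 cysteine cathepsins, under 5 ways of treating gene length. Libraries lie close together within each way, while the mean of the first ratio runs from -0.65 to 0.27 between them.

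Spread between the libraries was small. A gene was called variable where its deviance from a single mean, in edgeR with the trended dispersion of genes of like abundance, had a Benjamini-Hochberg adjusted p under 0.05. Of the 12879 genes tested, 143 (1.11%) were called. Of the 9 cathepsin genes tested 0 were called, 0 had an unadjusted p under 0.05, and DESeq2 marked 0 as dispersion outliers. Over all genes tested, 875 (6.79%) had an unadjusted edgeR p under 0.05 and DESeq2 marked 69. Ctsk did not pass the abundance filter; with no filter it had an unadjusted p = 0.018 and an edgeR adjusted p = 0.66. At 9 genes, a count of 0 is near these shares over all genes and is not a result about the family. Of the marker lists, 5 genes were called (edgeR adjusted p = 9.9e-06 to 0.015). They were P2ry12 among 8 tested microglial markers, Clu, Gfap and Slc1a3 among 6 of astrocytes, and Acta2 among 6 of mural cells and fibroblasts. In the astrocyte list 5 of the 6, and in the mural cell and fibroblast list 5 of the 6, had an unadjusted edgeR p under 0.05. Without replicate 1, P2ry12, Acta2 and Col1a1 were called, and without replicate 3, Clu and Gfap. The coefficient of variation of TMM-scaled CPM, CPM with a correction for library composition, had a median of 4.37% over the 9 genes, against 4.65% over the 2148 tested genes at 100 CPM or more and 8.98% over all tested genes. It was lowest for Ctsa, at 1.48%, and highest for Ctss, at 7.68%, with Ctsz at 6.07% and Ctsb at 5.18% between. Counting alone would give Ctss 0.437% and Ctsf, the least abundant of the 9, 2.54%.

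The genes did not all lean the same way in a library. In replicate 2, Ctsz lay 0.123, Ctsb 0.108, Ctsd 0.086 and Ctsh 0.069 above their own means on the log2 scale of TMM-scaled CPM, while Ctss lay at -0.104. In replicate 4, Ctss was 0.144 and Ctsl 0.089 above their means, while Ctsh was at -0.068. In all, replicate 2 was the highest library for 5 of the 9 genes, replicate 4 for 3 and replicate 1 for 1, while 4 were lowest in replicate 3. Over all tested genes 23.9% were highest in replicate 2 and 25.1% lowest in replicate 3. The ratio between genes was steadiest for Ctsd and Ctsb, whose log2 CPM ratio spanned 0.0404 over the libraries, and most variable for Ctss and Ctsz, where it spanned 0.411. These are descriptions of 4 libraries, without a test.

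**Figure D3:**
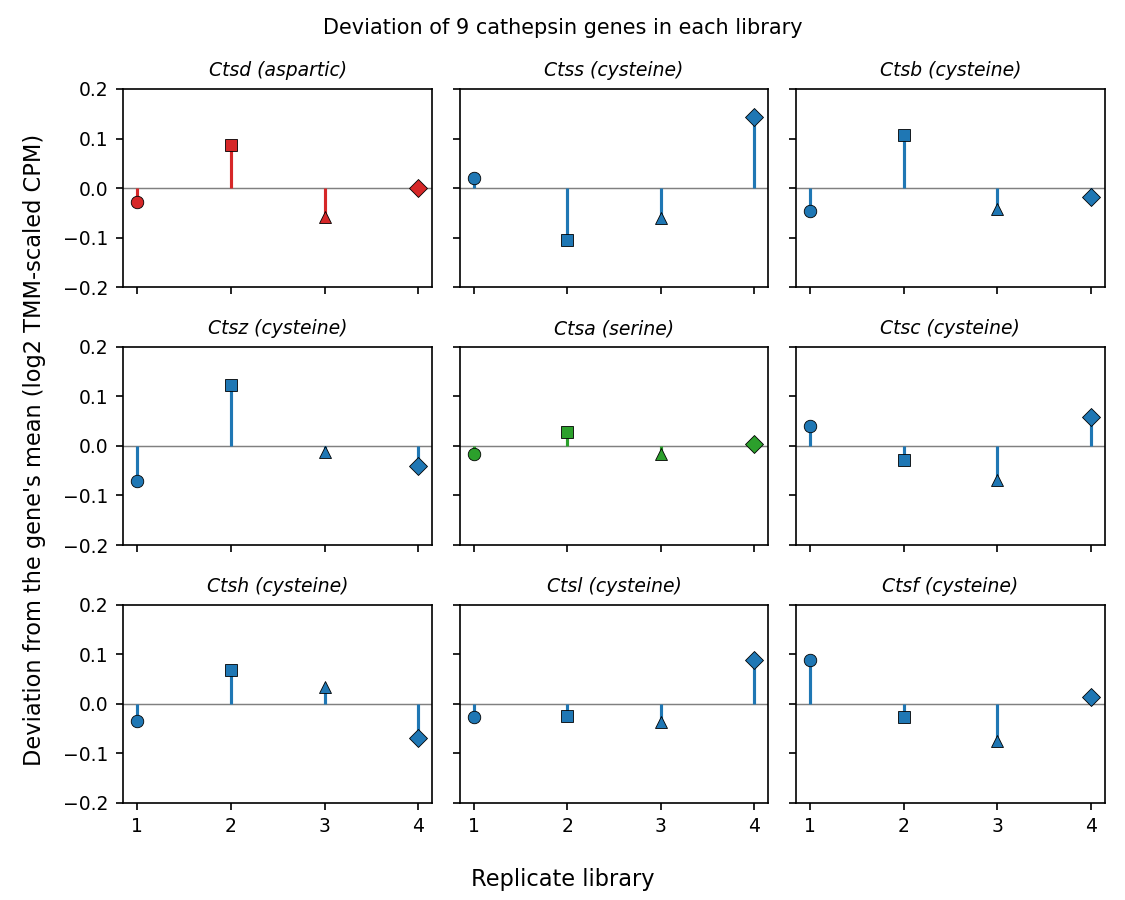
Deviation of each of 9 cathepsin genes from its own mean (log2 of TMM-scaled CPM) in replicates 1 to 4, 1 panel a gene, with colour for the protease class. Deviations lie between -0.104 and 0.144, with Ctsz, Ctsb and Ctsd highest in replicate 2 and Ctss lowest there.

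Promoter windows from RefSeq (GRCm38.p6, 250 bases before to 50 after a start) were found for 8 of the 10 genes, not for Ctsb and Ctsh. The counts were made on another build, so the windows serve for sequence only. They were searched on both strands for CACGTG, the core of the element bound by transcription factors of the TFEB family that act on lysosomal genes, for the GC box GGGCGG and for the TATA motif TATAAA, with the windows already in view. These genes had 9 windows, 2 of them for Ctsa. CACGTG was in 4 of the 9, 1 each of Ctsa, Ctsd, Ctsf and Ctsl, and in 7.15% of all 32851 windows. Of these genes, Ctsl and Ctsf were in the lowest tier by TPM, and the windows of Ctss, Ctsz, Ctsc and Ctsk had no CACGTG. Windows are shown for the gene with the highest level and the one with the steadiest, each with CACGTG at 2 places, and for Ctss and Ctsk, neighbours on chromosome 3 that lay at opposite ends of the cysteine class by TPM. Ctsa has a further window (chr2:164832622-164832921, plus strand), not shown, with no CACGTG. Capitals mark CACGTG and, in either orientation, the GC box and the TATA motif.
Ctsd (chr7:142387778-142388077, minus strand): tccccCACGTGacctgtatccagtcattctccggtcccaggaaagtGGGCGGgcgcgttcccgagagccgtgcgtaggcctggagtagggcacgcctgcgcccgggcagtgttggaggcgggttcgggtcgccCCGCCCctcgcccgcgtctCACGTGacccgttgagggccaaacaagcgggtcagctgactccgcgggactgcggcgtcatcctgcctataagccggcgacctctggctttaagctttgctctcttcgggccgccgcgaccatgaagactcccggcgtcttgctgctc
Ctsa (chr2:164833523-164833822, plus strand): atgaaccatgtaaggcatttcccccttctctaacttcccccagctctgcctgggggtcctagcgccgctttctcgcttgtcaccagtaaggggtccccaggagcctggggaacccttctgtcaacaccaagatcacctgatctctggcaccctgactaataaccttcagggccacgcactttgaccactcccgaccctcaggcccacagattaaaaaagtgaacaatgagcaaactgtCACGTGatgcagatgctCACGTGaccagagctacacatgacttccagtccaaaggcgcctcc
Ctss (chr3:95526536-95526835, plus strand): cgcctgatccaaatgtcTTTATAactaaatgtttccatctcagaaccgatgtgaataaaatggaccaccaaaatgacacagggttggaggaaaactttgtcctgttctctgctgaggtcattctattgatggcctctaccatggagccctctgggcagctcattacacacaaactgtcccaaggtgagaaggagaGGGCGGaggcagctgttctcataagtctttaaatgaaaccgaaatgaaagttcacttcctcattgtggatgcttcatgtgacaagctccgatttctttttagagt
Ctsk (chr3:95498960-95499259, plus strand): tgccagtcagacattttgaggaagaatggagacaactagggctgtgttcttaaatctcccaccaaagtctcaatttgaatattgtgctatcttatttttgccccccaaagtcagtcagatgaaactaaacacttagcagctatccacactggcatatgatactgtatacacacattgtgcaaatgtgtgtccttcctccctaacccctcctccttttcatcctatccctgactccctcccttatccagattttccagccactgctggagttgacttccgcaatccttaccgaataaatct
In Ctsd, CACGTG began 245 and 98 bases before the start, and in Ctsa 12 bases before it and at base 6 after it. GGGCGG was in 5 of the 9 windows, those of Ctsc, Ctsd, Ctsf, Ctss and Ctsz, and in 35.7% of all windows, while TATAAA was in 1 of the 9, that of Ctss, and in 13.6% of all. The Ctsk window held none of the 3 motifs. A match describes these letters and is no evidence of binding. The TFEB family genes themselves were present, with Tfe3 at 78.7 TPM ± 0.862, Mitf at 40.9 ± 2.44, Tfeb at 33.0 ± 3.13 and Tfec, the lowest, at 1.14 ± 0.249 (SD, n = 4). Of these 4, 0 were called variable (edgeR, 0 with unadjusted p under 0.05, 0 in DESeq2). That is near the shares over all genes tested (1.11%, 6.79% and, in DESeq2, 69 of 12879).

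Of 13 further cathepsin genes, 2 were at 1 CPM or more in every library. Ctso, a cysteine protease gene, was at 33.3 TPM ± 3.72 (SD, n = 4), close below Ctsf. Ctse, the other aspartic cathepsin, was at 7.5 TPM ± 2.10, with 5.45, 6.96, 5.82 and 9.87 TMM-scaled CPM in replicates 1 to 4, and was not called variable (edgeR adjusted p = 0.77). Replicate 4 was highest. Ctsg, a serine protease of neutrophil and mast cell granules, had 0, 0, 4 and 0 counts, and Ctsw, expressed by cytotoxic lymphocytes, had 0, 2, 3 and 0. Of 6 neutrophil and mast cell markers 5 had 0 counts, the other being Prtn3 with 1 count in all, and 5 lymphocyte markers summed to 0.0702 to 0.296 CPM. The 9 genes of the placental cluster, Ctsj, Ctsm, Ctsq, Ctsr, Cts3, Cts6, Cts7, Cts8 and Ctsll3, were at 0 counts throughout, so each could lie at up to 0.129 CPM in a library.

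The cystatins, tight inhibitors of cysteine cathepsins, were represented by 3 of 13 listed genes at 1 CPM or more in every library. Cst3, the secreted cystatin C, was at 10967 TPM ± 363 (SD, n = 4), and Cstb, the cytosolic cystatin B, at 709 ± 25.5. Cst7, which inhibits cathepsin C inside immune cells, was lower, at 29.1 TPM ± 2.51, Cst6 was at 0.0694 ± 0.0676, and the other 9 genes had 0 counts. The 8 cysteine cathepsins summed to 12772 ± 265 TPM and the cystatins to 11705 ± 359. The log2 ratio of cystatins over cysteine cathepsins was -0.13 ± 0.0427, negative in 4 of 4 libraries (same exact permutation test, p = 0.13). Its sign turned with longest transcript lengths, to 0.22, and with principal transcripts, to 0.12, and in CPM without length it was -1.45. Cst3 has a merged exon length of 1266 bases and a longest transcript of 860 bases. RNA levels do not give the balance of the proteins. Among 6 other inhibitors, Serpinb6a, a serpin of cathepsin G, was at 105 TPM ± 4.74, and Ctla2b and Ctla2a, related to the propeptides of cysteine cathepsins, at 85.3 ± 5.01 and 45.1 ± 5.70. Serpinb1a was at 0.0592 ± 0.0687. Ctla2a and Ctla2b are similar in sequence, and reads common to both would make their values uncertain.

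Other lysosomal peptidases were led by Lgmn, the asparaginyl endopeptidase that cuts several cathepsins into their 2-chain forms. It was at 2328 TPM ± 64.1 (SD, n = 4), between Ctsz and Ctsa in level. Scpep1 was at 194 ± 15.9, the tripeptidyl peptidase Tpp1 at 182 ± 6.35 and Prcp at 80.3 ± 4.2, and the lowest detected in all libraries was Cpq at 39.5 ± 1.75. Napsa, another aspartic protease, was at 1.73 ± 0.42, so Ctsd was the 1 aspartic protease of these lists above 10 TPM. Among partners, the saposin precursor Psap was at 4410 TPM ± 209, Glb1 at 135 ± 5.39, the thiol reductase Ifi30 at 128 ± 11.4 and Neu1 at 85.8 ± 4.05. Ctsa, at 862 TPM, was thus above both of its partners, Glb1 and Neu1. Of these 11 genes 0 were called variable (edgeR, 0 at an unadjusted p under 0.05, 0 in DESeq2). That is near the shares over all genes tested (1.11%, 6.79% and, in DESeq2, 69 of 12879).

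All 12 genes of mannose 6-phosphate sorting were at 1 CPM or more in every library, with a list median of 58.2 TPM ± 0.722 (SD, n = 4). The cation-dependent receptor M6pr was highest, at 293 TPM ± 6.31, followed by Nagpa, which uncovers the phosphate tag, at 162 ± 4.66, the retromer subunit Vps26a at 123 ± 11.6 and the adaptor Gga1 at 105 ± 3.91. The larger receptor Igf2r was lowest, at 9.83 TPM ± 1.33. None of the 12 was called variable (edgeR, 0 at an unadjusted p under 0.05, 0 in DESeq2). At 12 genes this is near the shares over all genes tested (1.11%, 6.79% and, in DESeq2, 69 of 12879) and is not a result about the list. Of 6 class II genes, Cd74 encodes the invariant chain that cathepsin S trims. H2-DMa was at 95.0 TPM ± 5.85, Cd74 at 55.5 ± 9.39 and H2-DMb1 at 54.5 ± 4.28, all far below Ctss. H2-Eb1, an antigen-binding chain, had 19, 56, 12 and 13 counts and was the 1 tested gene of these lists called variable (edgeR adjusted p = 0.026, highest in replicate 2). Without replicate 2, 3 or 4, or as a DESeq2 dispersion outlier, 0 of these genes were called. Only 4 of the 6 class II genes passed the abundance filter. H2-Aa, with 28, 60, 0 and 8 counts, and H2-Ab1, with 42, 55, 3 and 15, did not. Both were also highest in replicate 2, and with no filter both were called and H2-Eb1 was not. Cd74, highest there too, passed the unadjusted edgeR threshold but was not called. H2-DMa was also highest in replicate 2, and H2-DMb1 in replicate 4.

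**Figure D4:**
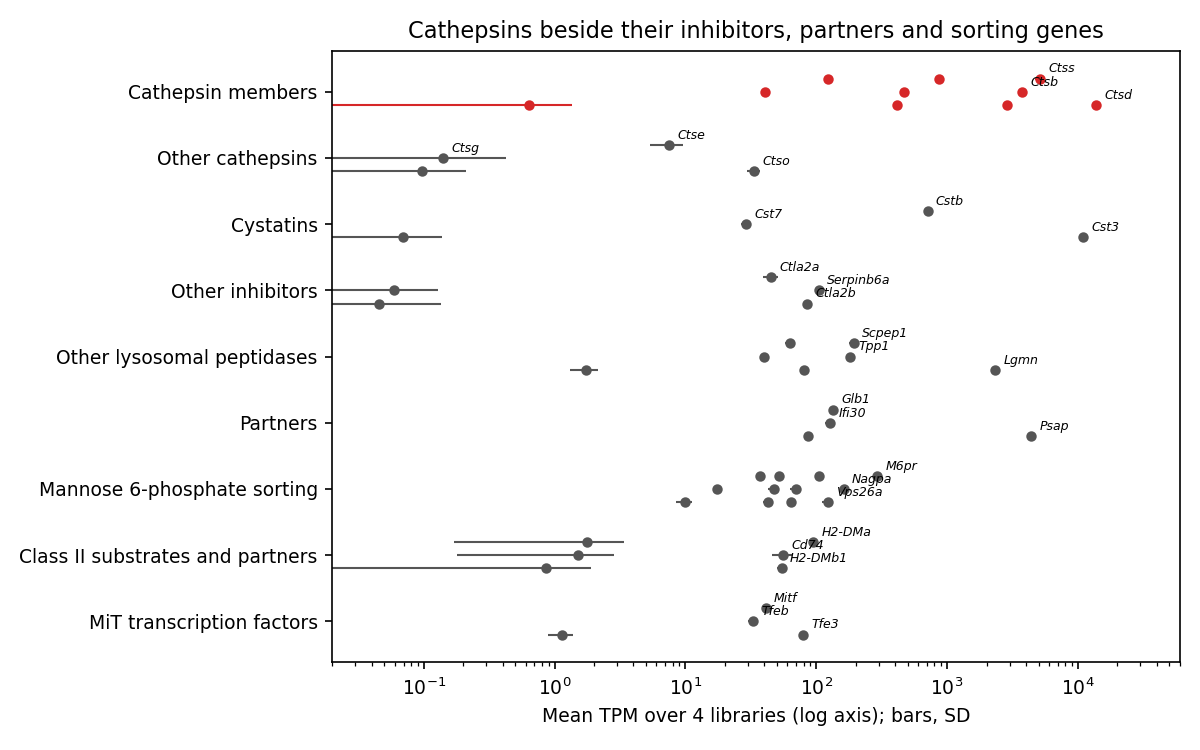
Mean TPM (log axis) with SD over 4 libraries for the cathepsins and for each further list, 1 point a gene, with the highest 3 of each row named. Genes with 0 counts are not drawn, and bars that reach 0 run off the axis. Cst3, at 10967 TPM, lies between Ctsd and Ctss.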

How the data were processed

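RNA was sequenced from sorted cultured microglia (4 libraries, 1 group, replicate numbers from the labels). The authors deposited raw counts per gene symbol, 1 file a library. The submitters' processing notes name build mm39 (GRCm39), HTSeq 0.11.2, SAMtools 1.16.1 and STAR 2.7.10a. The annotation release, strand setting and overlap setting are not given in these sources. The 5 summary lines (11.6% to 12.0% of reads) stayed out of all totals, and 0 columns belonged to no sample.

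CPM used summed gene counts. TPM used merged exon lengths of GENCODE M21, on GRCm38 and so for lengths and types only, matched by symbol (89.1% of symbols, 98.8% of counts). A library count of 0 was set to 3 counts in log ratios. Spread was tested in edgeR 4.0.16 (R 4.3.3, TMM, filterByExpr, deviance against chi-square with 3 degrees of freedom) on all genes, and the step was tested on simulated data; DESeq2 1.42.0 was an alternative. Sums were compared by exact sign-flip tests; the one planned for neighbouring genes is not given, since their order came from the same libraries. The other alternatives were gene length, pseudocount, denominator, filter, dispersion and each library left out. Members and lists were chosen with earlier results of these data known. Genes named were all 10 cathepsins, other cathepsins with any count, the 4 highest and the lowest detected of each pathway list, pathway genes called variable, and the level neighbours of the top 3. Napsa, H2-Aa, H2-Ab1, the genes that share exons and single cell type markers were named after their values were seen.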

Additional observations from a re-analysis of the deposited data

Results flagged for a closer look

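In 59 values examined for 1 library standing far from the other 3, chance alone flags about 1 in 20, and 3 were found. None was a value of the 10 cathepsins. H2-Eb1 had 2.39 CPM in replicate 2, while the other 3 libraries had 0.457 to 0.703 CPM. Ctsg was at 0.172 CPM in replicate 3 (4 counts) and at 0 in the others, and Serpina3g at 0.111 CPM in replicate 1 (3 counts) and at 0 in the others. A count of 0 allows up to 0.129 CPM.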

How the results depend on the processing

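Gene length moved the results most. With CPM and no length, the Ctss against Ctsb difference turned to -1.71 and the cysteine cathepsins stood above Ctsd by 0.27; with principal transcripts, chosen after seeing the data, that ratio was 0.02 and Ctsc against Ctsh was -0.10. The cystatin to cysteine cathepsin ratio turned to 0.22 with longest transcripts and to 0.12 with principal ones, and was -1.45 in CPM. The order held in all libraries for 8 of 9 pairs with longest transcripts, 7 in CPM and 6 with principal transcripts. The family share was 2.34% without mitochondrial and ribosomal protein genes. Of the 65 genes of the pathway lists, not all passed the abundance filter of the main test. It called 1 of them, and 1.11% of all genes tested. With no abundance filter 2 of the 65 were called (H2-Aa and H2-Ab1, not H2-Eb1), against 154 of all 22154 genes tested. DESeq2 marked 0 of the 65 as dispersion outliers, against 69 of 12879 genes tested. Leaving out 1 replicate gave 0 to 1, against 47 to 118 over all genes tested. No alternative called a cathepsin variable, though the genes called in all ranged up to 532 with a common dispersion and down to 47 without replicate 1. The cause was not tested. No paired analysis was possible because there is 1 group. Depth limits Ctsk, Ctsg and Ctsw, whose counts were 21 or fewer.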
